A study of Mus musculus with 2 samples.

Results

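The 9 genes described here take part in antigen presentation by the major histocompatibility complex (MHC). B2m, H2-K1, H2-D1, H2-Q6, H2-Q7 and Tap1 belong to the class I pathway, and H2-Aa, H2-Ab1 and Cd74 to the class II pathway. They were chosen by name and not by a measured value, although earlier results of these data were known. All 9 were present among the 31054 features of the normal library and the 32285 features of the wounded library. Each gene was followed across the 4 cell names of the normal library, across the 6 of the wounded library, and in cells that passed the filters without receiving a name. The names are those in the deposited tables.

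MHC class I molecules stand on nearly all nucleated cells and show peptides from the cytosol to CD8 T cells. Each molecule pairs a heavy chain with the light chain beta-2-microglobulin, encoded by B2m. In C57BL/6 mice the classical heavy chains come from H2-K1 and H2-D1, and H2-Q6 and H2-Q7 are nonclassical genes of the neighbouring Q region. Tap1 encodes a subunit of the transporter that moves peptides into the endoplasmic reticulum. MHC class II molecules show peptides from endosomes to CD4 T cells, and are a hallmark of dendritic cells, macrophages and B cells, although interferon gamma can induce them in epithelia. H2-Aa and H2-Ab1 encode the alpha and beta chain of the I-A molecule, and Cd74 the invariant chain that guides it through the cell. Transcription of both classes depends on a shared promoter module read by the coactivator Nlrc5 for class I and Ciita for class II.

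The cells came from the anorectal junction, where the stratified epithelium of the anal canal meets the columnar epithelium of the rectum through a transition zone. All mice were K17CreERT2;R26RGFP bigenics on the C57/BL6J strain, in which the keratin 17 promoter drives an inducible Cre and a stop cassette keeps a fluorescent reporter at Rosa26 silent, and both groups received 2 tamoxifen injections. The normal group was not wounded. In the wounded group rectal crypts next to the transition zone were removed with EDTA and a brush, after the tamoxifen and 1 week before collection. Time since tamoxifen therefore differed between the groups, and the wounding procedure included isoflurane and METACAM. Cells of at least 5 pooled female and male mice per library were sorted as live and EpCAM-positive, without CD45, CD11b, CD31 or PDGFRa on the surface, and sequenced as 10x 3' libraries.

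There was 1 library per condition, so the values below could not be checked against a replicate, and p-values are left out. Intervals are exact 95% intervals and cover counting error only. Condition, time since tamoxifen, library and the version of the counting software cannot be told apart. The file headers name Cell Ranger 3.1.0 for the normal and 4.0.0 for the wounded library, and the feature tables share 30406 gene identifiers. The normal library held 17617944 unique molecular identifiers (UMIs) in 2564 barcodes, of which 939 carried a name, and the wounded library held 88260050 UMIs in 17216 barcodes, of which 4147 carried a name. The median named cell had 9724 UMIs in the normal library, and in the wounded names the median ran from 2390 UMIs in Hybrid to 12620 in Regeneration. The libraries shared 1 cell barcode. Mitochondrial genes took a median of 4.77% of the UMIs of named cells in the normal library and 8.5% in the wounded one. Levels are given as CPM, counts per 1000000 UMIs, with the UMIs of all cells under a name pooled. A ratio is called higher or lower when it passes 2-fold, among features with at least 20 UMIs in the compared groups together.

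The names were compared with epithelial markers before they were used. Krt8, a keratin of columnar epithelium, reached 2741 CPM in normal and 2386 CPM in wounded Rectum, against 25.3 to 430.2 CPM in the other names, so Rectum was the columnar group in both libraries. Krt10, a keratin of differentiating stratified cells, was at 2228 CPM in normal Anal Canal and 1987 CPM in wounded Basal, but at 48.4 CPM in normal Basal. Krt13, another keratin of differentiating stratified cells, was at 812 CPM in normal Anal Canal, 1443 CPM in wounded Basal and 2.96 CPM in normal Basal. Over 4188 features the levels of wounded Basal correlated with r = 0.924 with normal Anal Canal and r = 0.823 with normal Basal. Those of wounded Regeneration had r = 0.889 with normal Basal, and those of wounded Suprabasal nearly the same, r = 0.881. Each of these values sets names of different libraries against each other, and depth differed between names. The name Basal therefore covers different profiles in the 2 libraries, and the pairs wounded Basal with normal Anal Canal and wounded Regeneration with normal Basal, chosen after these values were seen, are given beside the pairs of equal name. Ptprc, which encodes the CD45 antigen used to deplete leukocytes, stood at 0 to 4.05 CPM across the 10 names.

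The promoter stretches of 5 members are printed first, because they show what the members share apart from their levels. Positions refer to GRCm38, sequences to RefSeq on GRCm38.p6 and gene models to GENCODE M21. B2m (ENSMUSG00000060802) lies on chr2:122147686-122153083 (plus strand), apart from the other class I genes. On chromosome 17 the MHC holds H2-K1 (ENSMUSG00000061232) at chr17:33996017-34000347 (minus strand), Tap1 (ENSMUSG00000037321) at chr17:34187553-34197225 (plus), H2-Ab1 (ENSMUSG00000073421) at chr17:34257689-34269419 (plus) and H2-Aa (ENSMUSG00000036594) at chr17:34282744-34287823 (minus). The other heavy chains follow on the same chromosome, with H2-D1 (ENSMUSG00000073411) at chr17:35262730-35267499, H2-Q6 (ENSMUSG00000073409) at chr17:35424850-35430055 and H2-Q7 (ENSMUSG00000060550) at chr17:35439155-35443773, all on the plus strand. The stretches below run 5′ to 3′ on the strand of the gene, with matches to any searched motif in capitals, and lie upstream of the gene, that of B2m also inside an intron of Patl2 on the other strand. They are B2m at chr2:122147543-122147643, H2-K1 at chr17:34000348-34000478, H2-Q6 at chr17:35424657-35424804, H2-Q7 at chr17:35439002-35439148 and H2-Aa at chr17:34287862-34287959.
B2m: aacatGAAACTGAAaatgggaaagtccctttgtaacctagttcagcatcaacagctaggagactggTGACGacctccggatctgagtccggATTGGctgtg
H2-K1: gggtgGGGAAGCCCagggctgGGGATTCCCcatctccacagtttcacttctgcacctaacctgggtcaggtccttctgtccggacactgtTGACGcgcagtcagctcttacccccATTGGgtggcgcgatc
H2-Q6: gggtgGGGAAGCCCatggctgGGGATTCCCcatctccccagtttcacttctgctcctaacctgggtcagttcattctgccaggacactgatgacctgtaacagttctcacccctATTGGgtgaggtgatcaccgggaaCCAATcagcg
H2-Q7: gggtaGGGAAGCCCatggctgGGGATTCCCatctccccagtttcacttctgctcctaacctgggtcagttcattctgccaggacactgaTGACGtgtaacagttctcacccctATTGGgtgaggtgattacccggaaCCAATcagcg
H2-Aa: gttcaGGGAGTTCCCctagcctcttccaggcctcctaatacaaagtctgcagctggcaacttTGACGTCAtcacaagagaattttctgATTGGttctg

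The motifs were searched on both strands of windows from 250 bases before to 50 bases after the start, which were present for 7 members, not for H2-Ab1 and Cd74. The Y box CCAAT, the site of NF-Y, was in the windows of all 7, and in 37.4% of the 32851 promoter windows. The X2 core TGACG was in 6 of 7 members and in 20.8% of all windows, and the kB motif GGGANNNCC of NF-kB in 5 of 7 and 18.6%. The spelling GAAANNGAA of the interferon-stimulated element was in 1 of 7 and 8.56%, and the interferon gamma-activated site TTCNNNGAA in 0 of 7 and 8.30%. Each motif was searched in 1 spelling, so a window without a match may hold the element in another. The kB motif can match the same letters on both strands. An X2 core with ATTGG, the Y box on the other strand, starting 20 to 30 bases further on was found in 82 of 32851 windows (0.25%) and in 5 of 7 members, namely B2m, H2-K1, H2-D1, H2-Q7 and H2-Aa, a search added after the sequences were seen. H2-Q6 had no match at that place. Counted from 1 at the 5′ end of the X2 core, with the base of H2-Q7 given first, it carried G5C. Outside the members, the same search matched 1 of 10 other class I genes that had a window. It matched 0 of 10 other peptide loading genes and 0 of 10 other class II genes. The matches of H2-K1, H2-D1 and H2-Q7 are not independent, because these windows share longer runs of letters. The 4 heavy chain windows also shared the run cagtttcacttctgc, 15 bases long, which 7 of the 32851 windows held. Whether this run is an interferon-stimulated element in another spelling was not tested. A match is a description of letters, and binding was not measured in these libraries.

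In the normal library class I transcripts were highest in Suprabasal and Basal, with lower levels in Anal Canal and Rectum. B2m, the light chain, stood at 236 CPM (222 to 251) in Anal Canal, 1661 CPM (1612 to 1710) in Basal, 2722 CPM (2655 to 2791) in Suprabasal and 351 CPM (308 to 397) in Rectum. H2-K1, a classical heavy chain, stood at 185 CPM (173 to 198) in Anal Canal, 675 CPM (644 to 707) in Basal, 1012 CPM (971 to 1054) in Suprabasal and 317 CPM (276 to 361) in Rectum. H2-D1, the other classical heavy chain, stood at 399 CPM (381 to 419), 1094 CPM (1055 to 1134), 1440 CPM (1391 to 1490) and 554 CPM (500 to 612) in the same order of names. For each of these 3 genes the order was Suprabasal, Basal, Rectum and Anal Canal, and no neighbours in it had overlapping intervals. The highest name exceeded the lowest 11.5-fold for B2m, 5.46-fold for H2-K1 and 3.61-fold for H2-D1 (the levels of the class I genes by name).

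**Figure D1:**
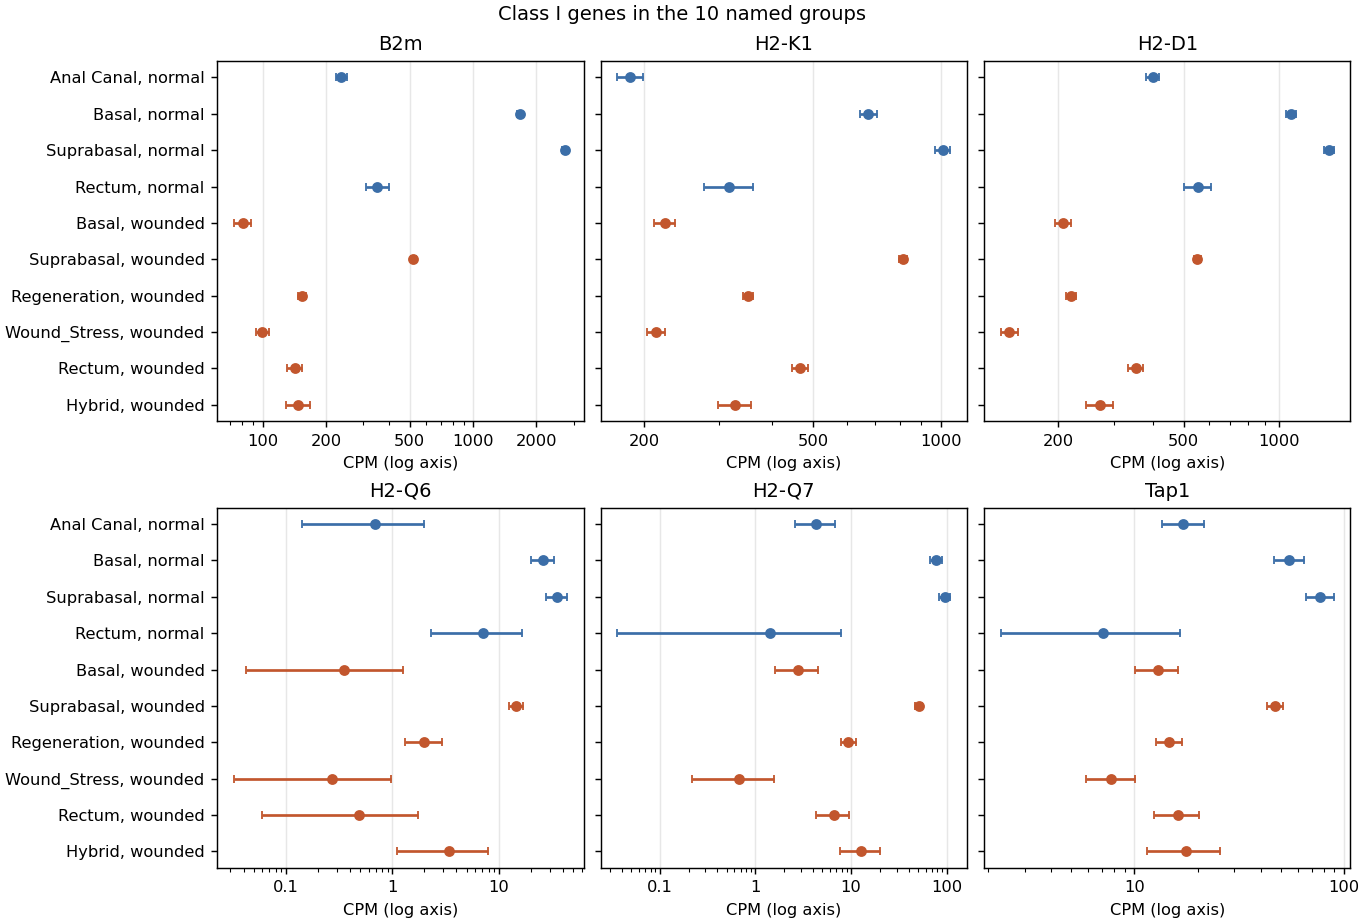
Level in CPM (log axis) of B2m, H2-K1, H2-D1, H2-Q6, H2-Q7 and Tap1 in the 4 names of the normal library (blue) and the 6 names of the wounded library (orange). Points are levels over all cells of a name and bars exact 95% Poisson intervals. Suprabasal is the highest name for every gene within each library, its interval overlapping that of normal Basal for H2-Q6 and H2-Q7, and B2m is 2722 CPM in normal and 520 CPM in wounded Suprabasal.

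The nonclassical heavy chains were far less abundant and varied more between names. H2-Q7 was at 4.34 CPM (2.61 to 6.77) in Anal Canal, 77.6 CPM (67.5 to 88.9) in Basal, 95.5 CPM (83.2 to 109) in Suprabasal and 1.42 CPM in Rectum, where 1 UMI was counted. H2-Q6 was at 0.685 CPM in Anal Canal on 3 UMIs, 25.9 CPM (20.2 to 32.7) in Basal, 35.0 CPM (27.8 to 43.6) in Suprabasal and 7.10 CPM in Rectum on 5 UMIs. Basal and Suprabasal had overlapping intervals for both, and both were separated from Anal Canal. H2-Q6 and H2-Q7 are close relatives: over whole transcripts they shared 176 windows of 90 bases with each other. In the last 500 bases 10.9% of the windows of H2-Q6 also occurred in another gene, most often Cd59b, with 24 windows. The last 500 bases of H2-Q7 had 0 such windows. Where reads lay along the transcripts was not examined, so their split is taken as uncertain. Their sum was 5.02 CPM in Anal Canal, 103.5 CPM in Basal, 131 CPM in Suprabasal and 8.52 CPM in Rectum.

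Tap1, the peptide transporter subunit, was at 17.1 CPM (13.5 to 21.5) in Anal Canal, 54.7 CPM (46.2 to 64.3) in Basal, 77.1 CPM (66.1 to 89.4) in Suprabasal and 7.10 CPM (2.31 to 16.6) in Rectum. It was thus highest in the same names as the heavy chains, and Anal Canal and Rectum overlapped.

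The comparison of Anal Canal with Basal and Suprabasal together asked how the stratified anal canal differed from the other squamous names. The log2 ratio was -3.18 for B2m, -2.16 for H2-K1, -1.65 for H2-D1, -5.46 for H2-Q6, -4.31 for H2-Q7 and -1.92 for Tap1. All 6 class I members were called lower, which makes 6 of 9 members against 9.97% of the 11036 features tested, and the members' median log2 ratio was -1.92 against 0.11 over those features. The class II members did not pass 2-fold, with 0.19 for H2-Aa, -0.58 for H2-Ab1 and -0.40 for Cd74. Of the other class I genes, a list of 19 with 13 among the features, 5 of 7 tested were lower and none was higher, with a median of -1.78. H2-T22, a heavy chain gene of the T region, was at 28.8 CPM in Anal Canal, 103.1 CPM in Basal and 92.9 CPM in Suprabasal, and H2-T23, which encodes the nonclassical molecule Qa-1, at 19.9, 73.9 and 78.9 CPM.

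The other genes of peptide loading moved less as a list, 4 of 12 being lower in Anal Canal and none higher, with a median log2 ratio of -0.30. Its abundant chaperones were close across names. Calr (calreticulin) was at 381 CPM in Anal Canal, 278 CPM in Basal and 407 CPM in Suprabasal, and Canx (calnexin) at 246, 190.4 and 211 CPM. Psmb8, a catalytic subunit of the immunoproteasome named here after its values were seen, was at 18.03 CPM in Anal Canal, 122 CPM in Basal and 93.3 CPM in Suprabasal. Of 18 tested interferon response genes, 5 were lower and 1 higher in Anal Canal, with a median of -0.62, where 8.87% of all features were higher.

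Suprabasal and Basal of the normal library differed by less than 2-fold for each tested member. The log2 ratio of Suprabasal over Basal was 0.71 for B2m, 0.58 for H2-K1, 0.40 for H2-D1, 0.44 for H2-Q6, 0.30 for H2-Q7 and 0.50 for Tap1, and -0.26 for H2-Ab1 and -0.04 for Cd74. Of 8 tested members 0 were called higher and 0 lower, against 6.57% of 9682 features called higher and 17.1% called lower. The members' median was 0.42 and that of all tested features -0.29. Of 6 other class I genes and 12 peptide loading genes 0 were called, with medians of -0.08 and -0.07, and of 13 interferon response genes 1 was higher and 3 were lower, with a median of -0.52.

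Rectum, the columnar name, was compared with the other 3 normal names together. Of 9 members 5 were lower and none higher, against 14.9% of features called lower, with a members' median log2 ratio of -1.16 against 0.10. B2m was lower by 3.57-fold, with a log2 ratio of -1.84 (-2.02 to -1.66). Tap1 had -2.58 (-4.22 to -1.35), called lower on 5 UMIs in Rectum. H2-K1 and H2-D1 had -0.74 and -0.62 and did not pass 2-fold. H2-Q6 had -1.20, H2-Q7 -5.07 on 1 UMI and H2-Ab1 -1.16, all 3 called lower on few UMIs, and H2-Q6 turned to 0.32 as a mean over cells. With cells thinned to 2000 UMIs 3 members were called. Rectum held 63 cells, whose median mitochondrial share was 9.26% against 4.28% to 5.01% in the other names, and the part of that difference in these values was not tested. In the peptide loading list 3 of 12 were lower and none higher, with a median of -0.11. The other class I genes had 3 of 8 higher and 1 lower, with a median of 0.25, and the interferon response genes 6 of 19 higher and 1 lower, with a median of 0.23, where 17.5% of all features were higher.

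Levels of single cells showed that the group levels did not rest on a few cells for the abundant class I genes. The median cell had 132 CPM of B2m in normal Anal Canal, 1671 CPM in Basal, 2490 CPM in Suprabasal and 260.1 CPM in Rectum. Between the 10th and 90th percentile B2m ran from 208 to 3993 CPM in Basal and from 780.4 to 4343 CPM in Suprabasal, so Basal was the more spread of the pair. For H2-K1 and H2-D1 summed, the median cell had 493 CPM in Anal Canal, 1772 CPM in Basal, 2412 CPM in Suprabasal and 771 CPM in Rectum. With every cell thinned to 2000 UMIs, a B2m UMI was found in 30.5% of Anal Canal cells, 83.1% of Basal, 95.1% of Suprabasal and 46.7% of Rectum cells, in the same order as the CPM. Without thinning the shares were 66.0%, 96.9%, 98.9% and 87.3%. Clustering the cells without MHC and pathway genes split normal Basal into a cluster of 219 cells with 1997 CPM of B2m and 128 CPM of H2-Q6 and H2-Q7 summed, and 26 cells of the cluster led by anal gland markers (Scd1, Plin2 and Elovl3 among them) with 307 and 2.38 CPM.

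**Figure D2:**
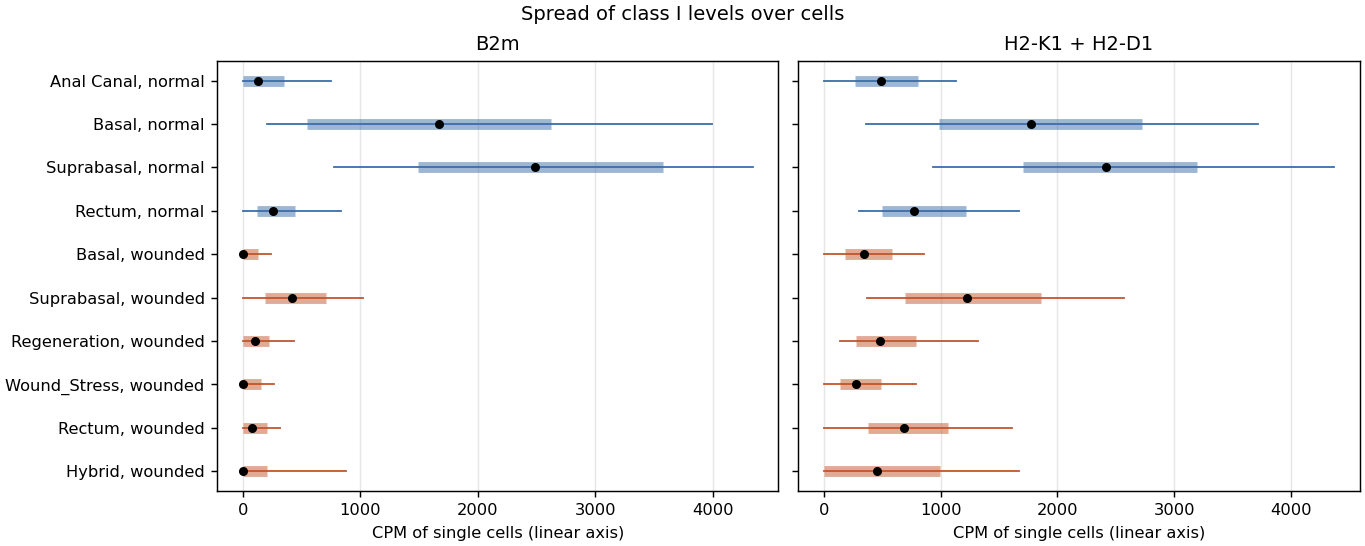
CPM per cell (linear axis) of B2m and of H2-K1 and H2-D1 summed in each name of the normal (blue) and wounded (orange) library. Dots are medians over cells, thick bars the quartiles and thin lines the 10th to 90th percentiles; the median cell of normal Suprabasal has 2490 CPM of B2m and that of wounded Suprabasal 423 CPM.

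In the wounded library Suprabasal was again the highest name for every class I member, and Basal or Wound_Stress the lowest. B2m was at 80.1 CPM (73.0 to 87.8) in Basal, 520 CPM (507 to 533) in Suprabasal, 153 CPM (146 to 160) in Regeneration, 99.7 CPM (92.7 to 107) in Wound_Stress, 142 CPM (131 to 154) in Rectum and 148 CPM (129 to 169) in Hybrid. H2-K1 was at 223 CPM (211 to 236), 815 CPM (799 to 832), 351 CPM (341 to 362), 214 CPM (203 to 224), 466 CPM (446 to 488) and 327 CPM (299 to 358) in the same order. H2-D1 was at 208 CPM (196 to 220), 551 CPM (538 to 565), 220 CPM (212 to 228), 140 CPM (132 to 149), 352 CPM (334 to 371) and 271 CPM (245 to 299) in that order. Rectum ranked after Suprabasal for both heavy chains, and for B2m it overlapped Hybrid, which in turn overlapped Regeneration. The highest name exceeded the lowest 6.49-fold for B2m, 3.82-fold for H2-K1 and 3.92-fold for H2-D1.

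H2-Q7 was at 50.9 CPM (46.9 to 55.2) in wounded Suprabasal, 12.8 CPM (7.71 to 20.01) in Hybrid, 9.38 CPM (7.79 to 11.2) in Regeneration, 6.57 CPM (4.33 to 9.56) in Rectum, 2.79 CPM (1.59 to 4.53) in Basal and 0.670 CPM (0.218 to 1.56) in Wound_Stress. The step between Suprabasal and Wound_Stress was 75.9-fold and rests on 5 UMIs in the latter. H2-Q6 was at 14.6 CPM (12.5 to 17.0) in Suprabasal and from 0.268 CPM in Wound_Stress to 3.37 CPM in Hybrid elsewhere, and those lower names overlapped from one to the next. Tap1 was at 46.9 CPM (43.1 to 51.0) in Suprabasal, 12.9 to 17.5 CPM in Basal, Regeneration, Rectum and Hybrid, and 7.77 CPM (5.90 to 10.1) in Wound_Stress.

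Against wounded Basal, 7 of 8 tested members were higher in wounded Suprabasal and none was lower, where 9.85% of 12291 features were called higher. The log2 ratio was 2.70 for B2m, 1.87 for H2-K1, 1.41 for H2-D1, 5.39 for H2-Q6, 4.19 for H2-Q7, 1.86 for Tap1 and 2.87 for Cd74, and -0.26 for H2-Ab1, the member that was not called. The members' median was 2.28 against -0.14 over all tested features. Among the other class I genes 5 of 7 were higher and none lower, with a median of 1.16, and in the peptide loading list 4 of 12 were higher and none lower, with a median of 0.29. The interferon response list was mixed, 3 of 20 being higher and 4 lower, with a median of -0.26, where 11.3% of all features were lower. As set out above, wounded Basal resembled normal Anal Canal in its keratins, so this comparison set Suprabasal against cells of that keratin profile.

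Regeneration and Wound_Stress, names found in the wounded library, were each compared with wounded Basal and Suprabasal together. Suprabasal gave 11574197 and Basal 5739922 UMIs of that pool, so the ratios lean to Suprabasal. Beside Basal alone, at 80.1 CPM, B2m was higher in Regeneration (153 CPM) and Wound_Stress (99.7 CPM). H2-D1 was at 220 and 140 CPM against 208 CPM. In Regeneration 5 of 8 members were lower and none higher against 13.8% of features called lower, with log2 ratios of -1.29 for B2m, -0.82 for H2-K1, -0.99 for H2-D1, -2.30 for H2-Q6, -1.90 for H2-Q7, -1.29 for Tap1, -2.69 for H2-Ab1 and -0.44 for Cd74. In Wound_Stress all 8 tested members were lower, against 15.1% of features, with -1.91 for B2m, -1.54 for H2-K1, -1.64 for H2-D1, -5.20 for H2-Q6, -5.70 for H2-Q7, -2.20 for Tap1, -3.58 for H2-Ab1 and -2.76 for Cd74. The members' median was -1.29 in Regeneration, where all features had -0.07, and -2.48 in Wound_Stress, where all features had 0.10. Other cell markers and RNA quality moved with these names. The 11 anal gland markers summed to 3019 CPM in Regeneration and 1845 CPM in Wound_Stress, against 269 CPM in wounded Basal and 472 CPM in Suprabasal, and the median mitochondrial share was 5.91% and 10.9% against 8.53% and 8.39%. Of Wound_Stress 142 cells and of Regeneration 97 cells fell in the anal gland-like cluster, with 83.0 and 71.2 CPM of B2m. The larger clusters of these names, of 681 and 853 cells, had 104 and 169 CPM of B2m and 0.985 and 13.5 CPM of H2-Q6 and H2-Q7 summed. In these larger clusters B2m and the Q genes lay below Suprabasal, at 520 and 65.5 CPM. B2m lay above Basal, at 80.1 CPM, and the Q genes on either side of Basal, at 3.14 CPM. The part of the anal gland-like cells and of the mitochondrial share in the ratios was not tested. H2-Aa, with too few UMIs to be tested, was at 0.231 CPM in Regeneration and 0.268 CPM in Wound_Stress.

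The pathway lists were mixed. In Wound_Stress 4 of 12 peptide loading genes and 13 of 20 interferon response genes were lower, none and 1 higher, with medians of -0.60 and -1.34, while the other class I genes had 2 of 7 higher and 1 lower, with a median of -0.67, and the regulators 1 of 9 lower and none higher, with a median of 0.19. Of all features 8.5% were called higher in Wound_Stress and 7.92% in Regeneration. In Regeneration the other class I genes had 3 of 9 higher and 1 lower, with a median of 0.41, on the other side of 0 from the members. There 3 of 12 peptide loading genes were lower and none higher, with a median of -0.63, and 5 of 21 interferon response genes were lower and 3 higher, with a median of -0.78. Some genes, named after their values were seen, stood apart from these lists. Psmb8 was at 1.47 CPM in Wound_Stress, 13.4 CPM in Regeneration and 57.7 CPM in wounded Suprabasal. Irf1, a transcription factor of the interferon response, was at 82.8 CPM in Regeneration and at 9.38 to 37.5 CPM in the other wounded names, and Icam1, an adhesion ligand of T cells, at 125 CPM in Regeneration. Irf1 and Icam1 were thus highest among the wounded names in Regeneration. The called class I members were lower there than in Basal and Suprabasal pooled, but none was lower than in Basal alone. B2m was at 153 CPM in Regeneration against 80.1 CPM in Basal, and H2-Q7 at 9.38 against 2.79 CPM. H2-Q6 also lay above Basal, and the intervals of Tap1 overlapped, at 14.6 against 12.9 CPM.

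Hybrid, the shallowest name, had 1 of 8 members higher and 5 lower than wounded Basal and Suprabasal pooled, against 16.7% of features called higher and 7.39% called lower. The higher member was Cd74, with a log2 ratio of 1.27 on 13 UMIs, which turned to -0.22 when cells were thinned to 2000 UMIs. B2m had -1.34 and Tap1 -1.02. Most UMIs of that pool were of Suprabasal, and against Basal alone no class I member was lower in Hybrid. B2m was at 148 against 80.1 CPM in Basal, H2-K1 at 327 against 223 CPM and H2-D1 at 271 against 208 CPM. H2-Q7 was at 12.8 against 2.79 CPM, and the intervals of H2-Q6 and Tap1 overlapped. Hybrid was spread over 5 clusters, so its level is an average over unlike cells. Enteroendocrine markers summed to 21040 CPM in it, against 14.6 to 273 CPM in the other wounded names, and 59 of its 316 cells lay in the cluster with endothelial and myeloid markers, whose part in the members' ratios was not tested. Krt8 at 430.2 CPM stood between its columnar and stratified levels. With cells thinned, 3 members were called in place of 6. The other class I genes had 2 of 8 higher and none lower, the peptide loading genes 1 of 12 lower and none higher and the interferon response genes 4 of 21 higher and 2 lower, with medians of -0.16, -0.26 and 0.27 against 0.30.

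In wounded Rectum, against the other 5 names, H2-K1 and H2-D1 had log2 ratios of 0.08 and 0.22, B2m -0.76 and Tap1 -0.50, H2-Q6 -3.42 and H2-Q7 -1.54. H2-Aa and Cd74 were higher, with 2.67 and 3.47, and H2-Ab1 had 0.35. That makes 2 of 9 members higher and 2 lower, against 17.9% and 16.0% of features, near the background. B2m, the classical heavy chains and Tap1 thus lay within 2-fold of the other names pooled. Among 28 interferon response genes 19 were higher and 3 lower, with a median of 2.19 against 0.09 over all features, and in the peptide loading list 4 of 12 were higher and none lower. Of 9 other class I genes 3 were higher and 1 lower, with a median of 0.12. Within Rectum, the cluster with goblet cell markers, of 108 cells, had 1106 CPM of H2-K1 and H2-D1 summed and the other, of 289 cells, 661 CPM. H2-Q2, a Q-region gene named after its values were seen, was at 32.7 CPM in normal and 24.3 CPM in wounded Rectum, and at 0 to 2.59 CPM in the other names except Hybrid, at 31.7 CPM.

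Across the libraries, the log2 ratio of wounded over normal lay below 0 for B2m and H2-D1 in each pair compared, B2m passing 2-fold in all of them and H2-D1 in all but Rectum and wounded Basal over normal Anal Canal, while H2-K1 lay on either side of 0. Over all named cells the log2 ratio of wounded over normal was -2.37 (-2.40 to -2.33) for B2m, -1.44 (-1.48 to -1.40) for H2-D1 and -0.21 (-0.25 to -0.16) for H2-K1. It was -1.72 for H2-Q6, -1.31 for H2-Q7, -0.86 for Tap1, -2.26 for H2-Aa, -1.68 for H2-Ab1 and -0.72 for Cd74. Of 9 members 6 were called lower and none higher, against 8.64% of 14114 features, with a members' median of -1.44 against 0.01. Of all features 13.6% were called higher. The other class I genes had 3 of 10 higher and 3 lower, the peptide loading genes 3 of 12 lower and none higher and the interferon response genes 6 of 28 higher and 5 lower, with medians of 0.05, -0.45 and 0.46. These totals mix the names in different shares, so the pairs of names follow.

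Suprabasal was the pair of equal name whose profiles were most alike among the stratified names, with r = 0.927 over 4188 features. B2m had a log2 ratio of -2.39 (-2.44 to -2.34), H2-D1 -1.39 (-1.45 to -1.32), H2-K1 -0.31 (-0.38 to -0.25), H2-Q6 -1.26 (-1.66 to -0.86), H2-Q7 -0.91 (-1.13 to -0.68) and Tap1 -0.72 (-0.96 to -0.46). Among the class II members H2-Aa had -2.61, H2-Ab1 -1.0 and Cd74 -0.98. All 9 ratios lay below 0, 5 of 9 were called lower against 5.63% of 11430 features, and the members' median was -1.0 against 0.14. H2-Ab1, Cd74 and H2-Q7 lay next to the 2-fold limit, and with cells thinned to 2000 UMIs 3 members were called. Of 7 other class I genes 2 were lower and none higher, with a median of -0.31, and of 12 peptide loading genes 2 were lower and none higher, with a median of -0.41. The interferon response list gave 3 of 19 higher and 3 lower, with a median of 0.05, where 16.2% of all features were higher. The name was not made up alike in the libraries. Of 187 normal Suprabasal cells 169 fell in a cluster led by Cst6, an inhibitor of cysteine proteases, and of 1032 wounded ones 460 fell in the wounded cluster led by that gene and 495 in a cluster with stratified basal markers. The Cst6-led cells had 2723 CPM of B2m in the normal and 555 CPM in the wounded library, 2414 and 1347 CPM of the classical heavy chains, and 118 and 41.2 CPM of H2-Q6 and H2-Q7 summed. The 495 cells had 460.1, 1393 and 103.1 CPM. B2m was thus low in both wounded clusters beside the normal one, and the Q genes differed between the wounded clusters.

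In Rectum B2m had a log2 ratio of -1.30 (-1.52 to -1.08), H2-D1 -0.65 (-0.82 to -0.49) and H2-K1 0.56 (0.36 to 0.77), so the heavy chains lay on opposite sides of 0 and their sum had -0.09 (-0.21 to 0.04). H2-Q7, Tap1 and Cd74 were called higher and B2m lower, 3 and 1 of 7 tested members against 11.6% and 6.41% of features, the members' median being 0.56 against 0.02. The first 2 of these rest on 1 and 5 UMIs in the normal group, with intervals of -0.39 to 7.57 and -0.12 to 2.85. Cd74, with 1.19 (0.26 to 2.28), had a log2 ratio of -0.07 as a mean over cells and -0.24 without the cells of the highest doublet scores. B2m was the called member whose whole interval lay beyond 2-fold. Of 19 interferon response genes 6 were higher and 2 lower, with a median of 0.68. Of 8 other class I genes 1 was higher and 1 lower, and of 12 peptide loading genes 0 were called, with medians of -0.21 and 0.28.

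**Figure D3:**
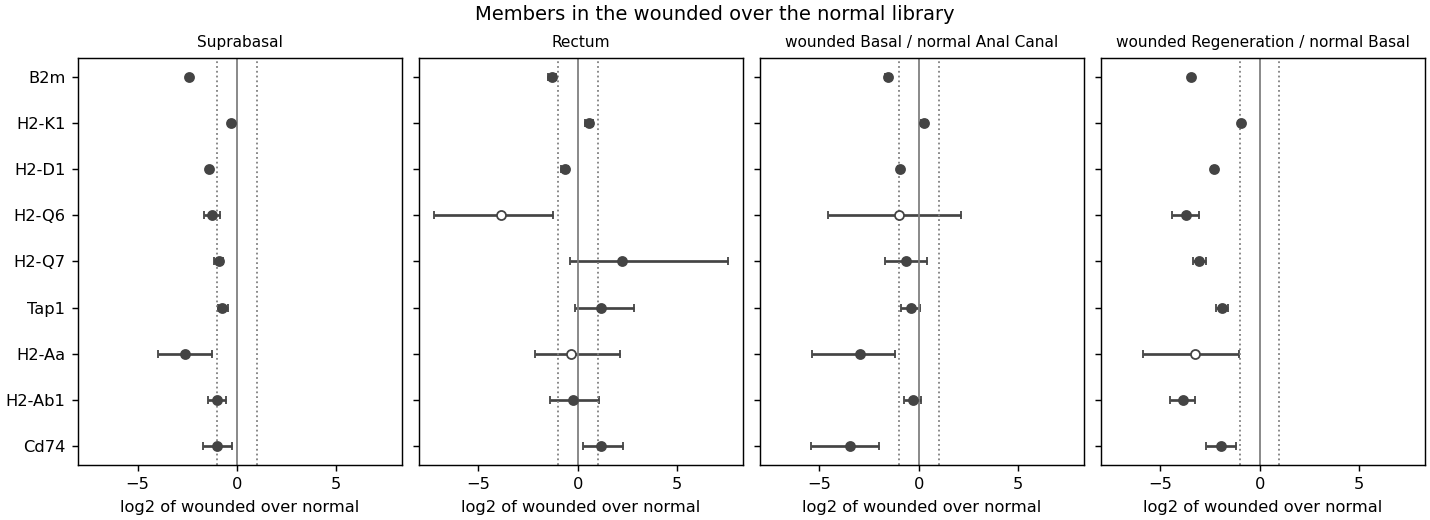
Log2 ratio of wounded over normal level for each member in 4 pairs of names: Suprabasal, Rectum, wounded Basal over normal Anal Canal, and wounded Regeneration over normal Basal. Bars are exact 95% intervals that cover counting error, open points have under 20 UMIs in both groups together, and dotted lines mark 2-fold; B2m lies below -1 in all 4 panels and H2-K1 between -0.94 and 0.56.

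The names called Basal gave 8 of 8 tested members lower in the wounded library, against 13.6% of features, with -4.37 for B2m, -2.40 for H2-D1, -1.60 for H2-K1, -6.21 for H2-Q6, -4.80 for H2-Q7, -2.09 for Tap1, -1.01 for H2-Ab1 and -3.89 for Cd74. Of all features 15.6% were called higher. The other class I genes had 4 of 6 lower and none higher, the peptide loading genes 5 of 12 lower and none higher and the interferon response genes 3 of 18 higher and 4 lower, with medians of -2.11, -0.76 and -0.39. Since these names hold different profiles, the pairs closest in profile were set beside them. Wounded Basal over normal Anal Canal gave -1.56 (-1.72 to -1.40) for B2m, -0.94 (-1.05 to -0.84) for H2-D1, 0.27 (0.14 to 0.40) for H2-K1, -0.64 for H2-Q7, -0.41 for Tap1 and -0.31 for H2-Ab1. Here 3 of 8 members were lower, namely B2m, H2-Aa (-2.97) and Cd74 (-3.48), against 7.02% of features, with a members' median of -0.79 against -0.02. The 2 class II calls rest on 3 and 4 UMIs in wounded Basal, and in normal Anal Canal on 3 cells that held 13, 1 and 1 of the 18 H2-Aa UMIs and 4, 14 and 11 of the 34 Cd74 UMIs, a pair of them with 6 and 4 myeloid markers. Of all features 10.2% were called higher. The other class I genes had 1 of 5 lower and none higher, the peptide loading genes 1 of 12 lower and none higher and the interferon response genes 5 of 15 higher and 1 lower, with medians of -0.55, -0.27 and 0.44. With cells thinned 1 member was called. The choice of the partner thus moved B2m from -4.37 to -1.56 and H2-K1 from -1.60 to 0.27.

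Wounded Regeneration over normal Basal gave -3.44 (-3.52 to -3.36) for B2m, -2.31 (-2.39 to -2.24) for H2-D1, -0.94 (-1.02 to -0.86) for H2-K1, -3.69 for H2-Q6, -3.05 for H2-Q7, -1.90 for Tap1, -3.87 for H2-Ab1 and -1.94 for Cd74. Of 8 members 7 were lower, against 13.8% of features, the exception being H2-K1, and the members' median was -2.68 against -0.14. Of all features 11.6% were called higher. Other class I genes had 4 of 8 lower and 1 higher, with a median of -0.94, and peptide loading genes 5 of 12 lower and none higher, with a median of -0.86. The interferon response list had 7 of 18 lower and 3 higher, with a median of -0.57. Normal Basal was nearly as close to wounded Suprabasal (r = 0.881) as to Regeneration (r = 0.889), so these ratios depend on the partner. Wounded Suprabasal had 50.9 CPM of H2-Q7 and 14.6 CPM of H2-Q6, against 77.6 and 25.9 CPM in normal Basal. Its B2m was at 520 against 1661 CPM.

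The proportion of the heavy chains to each other was compared next, since a ratio of genes within a group does not depend on the total of that group. UMIs of a 3' library count transcripts and carry no length term, but capture may differ between genes, so the ratio is read across groups and not for its size. H2-K1 per H2-D1 was 0.464 (0.426 to 0.505) in Anal Canal, 0.617 in Basal, 0.703 in Suprabasal and 0.572 in Rectum of the normal library. Wounded names had 1.08 (0.994 to 1.17) in Basal, 1.48 in Suprabasal, 1.60 in Regeneration, 1.52 in Wound_Stress, 1.32 in Rectum and 1.21 in Hybrid. The ranges of the libraries did not overlap, each wounded name lying above each normal one. Cells without a name had 0.683 in the normal and 1.53 in the wounded library, and barcodes that failed the filters 1.26 and 1.90, so the same direction was seen outside the names. Between the libraries the direction was the same in every group, but the ratio also differed within the normal library. Its failing barcodes, with a median mitochondrial share of 75.3%, had 1.26 (1.095 to 1.456), above every normal name and within the range of the wounded names. The part of counting software, feature table, library preparation or mitochondrial share in these differences was not tested.

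B2m per heavy chain UMI, with H2-K1 and H2-D1 summed, was 0.404 in Anal Canal, 0.939 in Basal, 1.11 in Suprabasal and 0.403 in Rectum of the normal library. Wounded names had 0.186 in Basal, 0.381 in Suprabasal, 0.268 in Regeneration, 0.282 in Wound_Stress, 0.174 in Rectum and 0.247 in Hybrid. Every wounded name lay below every normal name, but the interval of wounded Suprabasal (0.369 to 0.392) overlapped those of normal Anal Canal (0.376 to 0.435) and Rectum (0.346 to 0.468). Suprabasal was the highest in each library. Cells without a name had 0.765 and 0.323, and barcodes that failed the filters 0.433 and 0.183, so this ratio too was lower in the wounded library in barcodes outside the names. The light chain thus differed between names and between libraries by more than the classical heavy chains H2-K1 and H2-D1 did. H2-Q6 and H2-Q7 differed more than B2m between names.

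**Figure D4:**
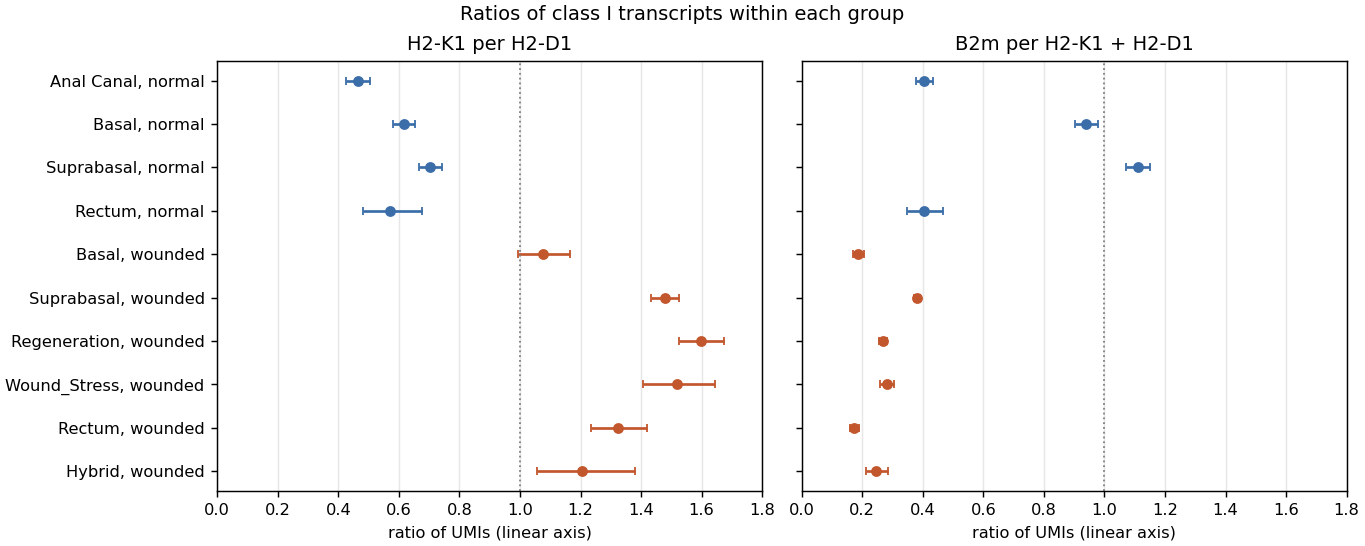
UMIs of H2-K1 per UMI of H2-D1, and of B2m per UMI of H2-K1 and H2-D1 summed, in each name of the normal (blue) and wounded (orange) library, on linear axes with exact 95% intervals and a dotted line at 1. H2-K1 per H2-D1 is 0.464 to 0.703 in normal names and 1.08 to 1.60 in wounded names, and B2m per heavy chain is 0.403 to 1.11 and 0.174 to 0.381.

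Single cells of the wounded library had lower and less complete detection of B2m. The median cell had 423 CPM of B2m in Suprabasal, 99.6 CPM in Regeneration, 80.3 CPM in Rectum and 0 CPM in Basal, Wound_Stress and Hybrid. Hybrid had a median of 2390 UMIs per cell, so depth limits its median. Thinned to 2000 UMIs, B2m was found in 21.2% (15.5 to 27.8) of 184 Hybrid cells, with 132 left out. The shares were 24.95% in Regeneration, 25.1% in Rectum, 15.25% in Basal and 14.55% in Wound_Stress. The summed heavy chains had a median of 1227 CPM in Suprabasal, 688 CPM in Rectum, 477 CPM in Regeneration, 458 CPM in Hybrid, 342 CPM in Basal and 274 CPM in Wound_Stress. With cells thinned to 2000 UMIs, H2-K1 was found in 72.0% of wounded Suprabasal cells and 82.0% of normal ones, and B2m in 55.0% and 95.1%. Unthinned, H2-K1 was found in 94.9% and 95.7% and B2m in 88.5% and 98.9%. The pair of genes thus parted in the share of cells as they did in CPM.

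Class II members were low in every name. Cd74 (ENSMUSG00000024610) lies on chr18:60803848-60812652 (plus strand), outside the MHC. H2-Ab1, the beta chain, was at 20.1 CPM (16.1 to 24.8) in normal Anal Canal, 32.5 CPM (26.1 to 40.1) in Basal, 27.2 CPM (20.8 to 34.8) in Suprabasal and 11.4 CPM (4.91 to 22.4) in Rectum. H2-Aa, the alpha chain, was at 4.11, 2.22, 5.26 and 4.26 CPM in the same order, on 3 to 18 UMIs. Cd74, the invariant chain, was at 7.76 CPM (5.37 to 10.8), 10.4 CPM (6.88 to 14.96), 10.1 CPM (6.39 to 15.1) and 14.2 CPM (6.81 to 26.1). The intervals of neighbours in the order of the 4 normal names overlapped for each of these genes, and for H2-Ab1 that of Basal lay above those of Anal Canal and Rectum. Ciita, the class II coactivator, had 0 CPM in all 4 normal names.

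In the wounded library H2-Ab1 was at 16.2 CPM (13.1 to 19.9) in Basal, 13.6 CPM (11.5 to 15.9) in Suprabasal, 9.49 CPM (6.75 to 13.0) in Rectum, 2.70 CPM (0.735 to 6.91) in Hybrid, 2.23 CPM (1.49 to 3.203) in Regeneration and 1.21 CPM (0.552 to 2.29) in Wound_Stress. Each name thus overlapped the next in this order, Rectum also overlapping Hybrid. Basal and Suprabasal lay above Hybrid, Regeneration and Wound_Stress, and Rectum above Regeneration and Wound_Stress. Cd74 was at 32.4 CPM (27.1 to 38.4) in Rectum, 8.77 CPM (4.67 to 14.99) in Hybrid, 5.10 CPM (3.88 to 6.58) in Suprabasal, 2.69 CPM (1.88 to 3.74) in Regeneration, 0.697 CPM (0.190 to 1.78) in Basal and 0.536 CPM (0.146 to 1.37) in Wound_Stress. H2-Aa was at 0.231 to 3.41 CPM, on 2 to 14 UMIs. The class II genes therefore did not share 1 order of names, H2-Ab1 being high in Basal, where Cd74 was near the lowest.

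**Figure D5:**
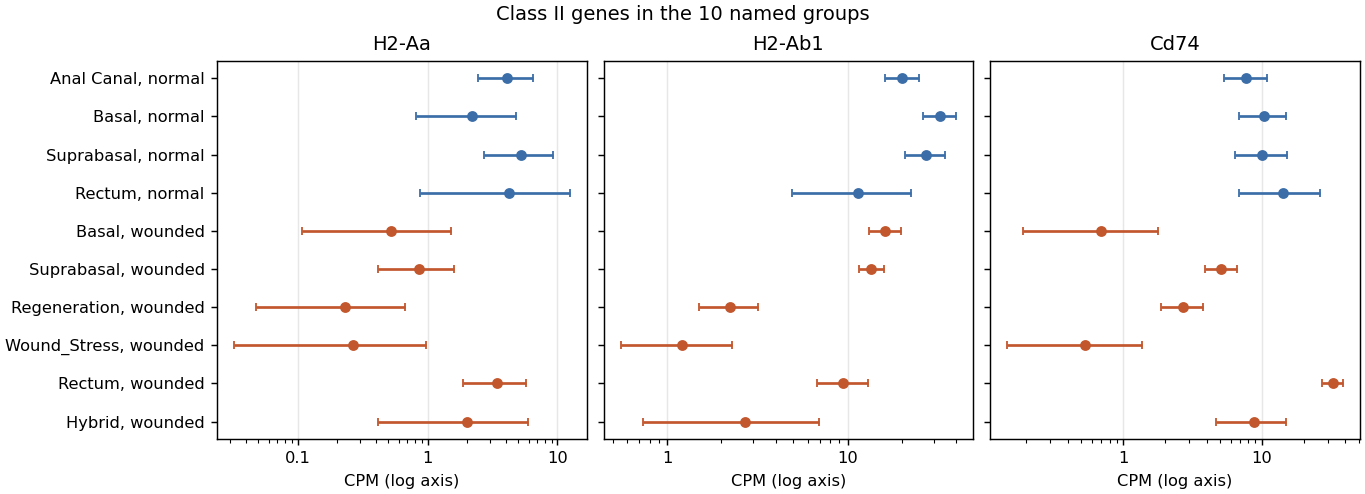
Level in CPM (log axis) of H2-Aa, H2-Ab1 and Cd74 in the 4 names of the normal (blue) and the 6 names of the wounded (orange) library. Points are levels over all cells of a name and bars exact 95% Poisson intervals; Cd74 reaches 32.4 CPM in wounded Rectum and stays at 14.2 CPM or less in the other names.

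The chains of the I-A molecule were counted in unequal numbers. H2-Ab1 per H2-Aa was 4.89 in Anal Canal, 14.7 in Basal, 5.17 in Suprabasal and 2.67 in Rectum of the normal library, and 31.0 in Basal, 15.7 in Suprabasal, 9.67 in Regeneration, 4.50 in Wound_Stress, 2.79 in Rectum and 1.33 in Hybrid of the wounded one. Barcodes that failed the filters had 1.51 and 1.49, and wounded cells without a name 1.02. In the normal library 34 of the 41 H2-Aa and 53 of the 62 H2-Ab1 UMIs of failing barcodes each lay in a single barcode, and 3 wounded cells without a name held 108, 96 and 41 of the 258 H2-Aa UMIs, so these ratios describe few cells. Stratified names with many H2-Ab1 UMIs thus held few of H2-Aa. With cells thinned to 2000 UMIs, H2-Ab1 was found in 2.77% of normal Anal Canal cells, 6.67% of Basal and 4.37% of Suprabasal cells, and in 4.08% of wounded Basal and 2.94% of wounded Suprabasal cells, against 0.245% to 0.544% in the other 4 wounded names. Unthinned shares were 12.3%, 22.6%, 24.6%, 13.1% and 10.1% in the first 5, and 0.955% to 6.30% in the others. Thinning to 2000 UMIs left out 2 to 35 cells per normal name and 5 to 132 per wounded name, most of them in Hybrid. At that depth 1 to 3 cells stand behind each share of the other 4 wounded names. Thinned to 5000 UMIs, wounded Rectum had 4.5% (2.37 to 7.8), beside 7.6% in wounded Basal and 6.5% in wounded Suprabasal. The remaining wounded names had 0.454% to 1.16% at 5000 UMIs.

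A few cells held much of the class II signal. Among named cells and cells without a name, 31 had at least 5 class II UMIs, the 3 members summed. In the names these were 3 cells of normal Anal Canal, 3 of Basal, 3 of Suprabasal and 2 of Rectum, and 4 of wounded Suprabasal, 1 of Regeneration and 5 of Rectum, with 0 in wounded Basal, Wound_Stress and Hybrid. In wounded Rectum those 5 cells held 125 of the 186 class II UMIs, and 1 of them held 83, of which 76 were Cd74, together with 62 UMIs of leukocyte markers. Without such cells, an alternative chosen after seeing the data, the summed class II level went from 45.2 to 15.2 CPM in wounded Rectum, from 19.5 to 17.2 CPM in wounded Suprabasal and from 5.15 to 4.77 CPM in Regeneration. In the normal names it went from 32.0 to 20.2 CPM in Anal Canal, 45.1 to 36.0 CPM in Basal, 42.5 to 32.3 CPM in Suprabasal and 29.8 to 13.4 CPM in Rectum. The high level of wounded Rectum thus rested on these few cells, and most of the level of the stratified names remained. Markers of antigen-presenting cells were counted beside these values. The 10 leukocyte markers summed to 11.4 to 128 CPM over the 10 names, 1.42 to 126 CPM of which were Arhgdib, the 10 myeloid markers to 0.134 to 5.02 CPM, and the 7 dendritic and Langerhans cell markers to 0 CPM in the 4 normal names and at most 0.268 CPM in the wounded ones. The 6 B cell markers summed to 1581 CPM in wounded Rectum, of which 1415 CPM were the immunoglobulin gene Igkc, to 195 CPM in normal Anal Canal and to 0.674 to 10.7 CPM in the other names. The part of B lineage transcripts in the class II values was not tested.

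Cells that passed the filters but carried no name numbered 610 in the normal and 1078 in the wounded library. B2m was at 659 CPM (639 to 680.1) and 258 CPM (249 to 267) in them, H2-K1 at 349.7 CPM (335 to 365) and 483 CPM (470.4 to 496), and H2-D1 at 512 CPM (494 to 530.1) and 315 CPM (305 to 325). Against the named cells of the normal library 4 of 9 members were lower and 1 was higher, against 9.96% and 13.6% of features. The higher one was Cd74, with a log2 ratio of 1.45, which had -1.52 without the 1% of cells with most Cd74 UMIs. In the wounded library 3 of 9 were higher and none lower, against 14.3% of features, and these were H2-Aa with 4.75, H2-Ab1 with 1.54 and Cd74 with 2.92. Among cells under 10% mitochondrial UMIs these 3 ratios were -0.21, -0.29 and -2.03. Without that limit, the class I members of the wounded library differed by less than 2-fold, with 0.16 for B2m, 0.12 for H2-K1, 0.04 for H2-D1 and 0.32 for Tap1. H2-Q6 and H2-Q7 lay higher, and over the alternatives ran from 0.91 to 1.7 and from 0.62 to 1.46, past 2-fold at the upper end. Of 33 interferon response genes 21 were higher and 1 lower in the wounded cells without a name, with a median of 2.03 against 0.12.

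The class II signal of cells without a name was held by few of them. In the wounded library 6 cells with at least 5 class II UMIs held 940 of 1034, and 3 of those had 482, 311 and 111 class II UMIs beside leukocyte and myeloid markers. In the normal library 4 cells held 175 of 209, of which a pair with 81 and 55 class II UMIs carried immunoglobulin transcripts, and a pair with 28 and 11 endothelial markers. Without them the level went from 87.1 to 7.98 CPM in the wounded and from 34.9 to 5.74 CPM in the normal library. Both remaining levels lay below those of normal Basal and Suprabasal without such cells.

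Clusters of the unnamed cells differed in class I level. In the normal library 329 cells of an anal gland-like cluster had 261 CPM of B2m and 565 CPM of the classical heavy chains, and 185 hair follicle-like cells had 1454 and 1512 CPM. The anal gland-like cells had 1.51 CPM of H2-Q6 and H2-Q7 summed and the hair follicle-like cells 69.2 CPM, so the nonclassical genes separated them most. In the wounded library 425 anal gland-like cells had 69.9 CPM of B2m, 475 CPM of the classical heavy chains and 1.66 CPM of the Q genes, and 185 fibroblast-like cells 431, 1054 and 58.5 CPM. A cluster with endothelial and myeloid markers held 93 cells, of which 59 were named Hybrid and 33 carried no name. Those 33 had 1076 CPM of B2m, 2970.0 CPM of the classical heavy chains and 4976 CPM of class II, with Ciita at 21.6 CPM. The class II value came from 920 UMIs, of which the 3 cells with leukocyte and myeloid markers held 482, 311 and 111, so it is not a level of the cluster as a whole.

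Genes whose levels across the 10 names were most like the members were sought over 4216 features, with Pearson's r of log2(CPM + 10). The names come from shared libraries, their depth differed, and no test was made. For H2-K1 and H2-D1 summed the closest were Egln3 (r = 0.969), a prolyl hydroxylase, Dapk2 (r = 0.960), a kinase, B2m (r = 0.951), Stx7 (r = 0.943), a syntaxin of endosomes, and Psmb8 (r = 0.932). For the class II members summed they were Cyb561 (r = 0.927), Aurkaip1 (r = 0.922), Tram1 (r = 0.911), Actr3 (r = 0.902) and Arf1 (r = 0.901). The first set thus held a member of the class I pathway and an immunoproteasome subunit, and the second no gene of the class II pathway. With a pseudocount of 1 in place of 10, 3 and 2 of the 5 genes were again among the closest. In the first set Psmb8 and Dapk2 then dropped out, and Tcaf2 and H2-T22 took their places, so the immunoproteasome subunit depended on this setting.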

How the data were processed

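Single-cell 3' UMI counts of 1 normal and 1 wounded library were analysed. The deposited counts per gene and barcode came from the authors' Cell Ranger run against mm10 (submitters' processing notes: Cell Ranger 3.1.0 and Seurat 3.2.2; the file headers give 4.0.0 for the wounded library). A further table per library gave the authors' named cells as natural log values, log(count + 1), whose back-transformed values were whole numbers within 3e-11, and supplied the cell names and an alternative set of counts. Cells with more than 200 and fewer than 5000 detected genes and under 25% mitochondrial UMIs were kept as cells without a name where the table did not hold them. 1 named normal cell did not pass these filters and was kept under its name.

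The counts of all cells under a name were pooled, and levels given as CPM (per 1000000 pooled UMIs) with exact Poisson intervals, ratios with exact binomial intervals, and shares after thinning to 2000 UMIs with exact Clopper-Pearson intervals. A group at 0 was set to 3 UMIs for a ratio. Features with at least 20 UMIs in both groups together were called at 2-fold. With 1 library per condition no test was run, and no replicate spread exists. The 9 members, the gene lists and the comparisons were chosen with earlier results of these data known. Named genes were the members, the 5 genes of each list with most UMIs and the 5 closest in pattern, others being identified as chosen after their values were seen. Cells were clustered with Seurat 5.3.0 (R 4.3.3) on 2000 variable features without MHC and pathway genes, with 10 components and a resolution of 0.2, and clusters were called by fixed markers. Scrublet (scanpy 1.11.5) called 4 of 1548 and 0 of 5225 cells doublets, too few to be of use, so doublets were kept and the highest 6% of scores were left out as an alternative. The authors' gate also discriminated doublets. Promoter sequences were taken from RefSeq (GRCm38.p6) and gene positions from GENCODE M21. Alternatives changed the counting, the thresholds and the cells used. Python 3.11.15, numpy 2.4.6, scipy 1.17.1, pandas 2.3.3 and matplotlib 3.10.9 were used. The ratio and its interval, not the 2-fold call, were tried on simulated counts without spread between cells or libraries.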

Additional observations from a re-analysis of the deposited data

Results flagged for a closer look

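H2-K1, a classical heavy chain, had a log2 ratio of wounded over normal of -0.31 in Suprabasal and 0.56 in Rectum, on opposite sides of 0. Over the alternatives it stayed between -0.47 and -0.21 in Suprabasal and between 0.48 and 0.89 in Rectum. Cd74, the class II invariant chain, had -0.98 in Suprabasal and 1.19 in Rectum, where the normal group held 10 Cd74 UMIs and 1 wounded cell held 76. With 1 library per condition, the difference between the names was not tested for either gene.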

How the results depend on the processing

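Of the values that answer a comparison, 166 stayed within 1.5 times of the reported count or kept their side and 28 moved; of single values 980 did not move beyond their limits, 230 moved and 12 reversed. Counts of members past 2-fold moved as follows. Thinning to 2000 UMIs gave 3 in place of 5 in normal Rectum, 3 in place of 6 in Hybrid, 3 in place of 5 in Suprabasal and 1 in place of 4 in Rectum of wounded over normal, 3 in place of 5 in normal cells without a name, and 1 in place of 3 in wounded Basal over normal Anal Canal. A call at 1.5-fold gave 8 in normal Rectum, 1 in place of 0 in normal Suprabasal over Basal, 8 in Suprabasal of wounded over normal, 8 and 5 in place of 5 and 3 in the cells without a name of the normal and wounded library, and 5 in wounded Basal over normal Anal Canal. No share of all features at 1.5-fold stands beside these counts, so they are not read as results about the members. The deposited whole numbers gave 3 in normal Rectum, and a mean over cells 3 in Hybrid. Under 10% mitochondrial UMIs the count was 1 in normal Suprabasal over Basal, 2 in Rectum of wounded over normal, and 1 in wounded Basal over normal Anal Canal. Without cells holding a UMI of an immune marker, which removed many epithelial cells through Arhgdib, it was 5 in place of 8 in Basal and 1 in Rectum of wounded over normal, 2 in normal cells without a name, and 1 in wounded Basal over normal Anal Canal. Without the 1% of cells with most UMIs of the gene, and with a minimum of 100 UMIs, it was 2 in Rectum of wounded over normal and 1 in wounded Basal over normal Anal Canal. With a pseudocount of 1, 3 and 2 of 5 closest genes were shared, and 17 in place of 31 cells had at least 10 class II UMIs.

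Reversals were H2-Q6 in normal Rectum, 0.32 as a mean over cells; Cd74 in Hybrid, -0.22 when thinned; Cd74 in Rectum of wounded over normal, -0.07 as a mean over cells and -0.24 without the top 6% of doublet scores. In normal cells without a name H2-Aa had 0.10 under 10% mitochondrial UMIs, and Cd74 had -0.73 as a mean over cells and -1.52 without the top 1% of cells. In wounded cells without a name, under 10% mitochondrial UMIs H2-Aa had -0.21, H2-Ab1 -0.29 and Cd74 -2.03, and Cd74 had -0.47 without immune-marker cells and -2.61 without the top 1%. The causes were not tested. The pairs wounded Basal with normal Anal Canal and wounded Regeneration with normal Basal were chosen after seeing the data. No paired analysis was possible because each condition has 1 library. Scaling without features above 1% of UMIs moved the median of all features from -0.29 to -0.13 in normal Suprabasal over Basal. Depth limits the class II genes and H2-Q6, with under 20 UMIs in many names.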

Other observations

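In barcodes that failed the filters the class II level of the normal library came from a pair of barcodes. The 1015 such barcodes of that library, with a median mitochondrial share of 75.3%, had 149 CPM of H2-Aa, H2-Ab1 and Cd74 summed, against 29.8 to 45.1 CPM in the names. Of its 232 UMIs 2 barcodes held 214, 1 of them 175, and without them the level was 11.8 CPM, below all 4 names. The 11991 of the wounded library had 21.8 CPM, within the range of the wounded names. Of those, 18 barcodes with at least 5 class II UMIs held 340 of 720 UMIs, and without them the level was 11.6 CPM. B2m of all failing barcodes was at 221 CPM in the normal and 57.8 CPM in the wounded library, and H2-K1 at 284 and 207 CPM.

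Ctss, a protease that trims the invariant chain and was named after its values were seen, was at 145 CPM in normal and 94.6 CPM in wounded Rectum, 20.2 CPM in Hybrid and 0 to 2.22 CPM in the other names. Within wounded Suprabasal, a cluster of 495 cells had 103.1 CPM of H2-Q6 and H2-Q7 summed and 19.8 CPM of H2-Ab1, and a cluster of 460 cells 41.2 and 8.58 CPM.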
